A study of Homo sapiens with 47 samples.

Results

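To ask how far cell lines with the same damaged gene can differ, the transcriptomes of C5 and C6 were compared directly. C5 and C6 are NUP58 mutant clones of HAP1, a near-haploid human cell line derived from a chronic myeloid leukemia. The pair was chosen by the levels of NUP58 mRNA, which were about equal in both, and because these clones had the most genes changed against the wild-type line, so both properties are given as descriptions only. The comparison rests on 8 of the 47 RNA-seq libraries of the series, 4 of C5 and 4 of C6. As references served 8 libraries of unedited HAP1 and 16 of the other NUP58 mutant clones, C1 to C4, with 4 libraries per line. The unedited lines were the wild type (WT) and EV, which received Cas9 without a guide RNA. All lines were grown under the same conditions and harvested before confluence.

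Each clone grew from 1 sorted cell that survived CRISPR-Cas9 targeting of NUP58, and was sampled at passage 1. C5 carries edits in exons 4 and 13 of NUP58, whereas C6 carries an edit in exon 4 only. The smallest viable colonies were picked, so both clones stand for survivors and not for edited cells in general. Because each genotype is 1 clone, a difference between C5 and C6 cannot be assigned to their NUP58 alleles, and what the alleles do and what else sets the clones apart cannot be told apart. The p-values below cover the spread between libraries of a clone, and not the spread between clones.

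NUP58 encodes a nucleoporin of the central channel of the nuclear pore complex, where it sits with NUP54 and NUP62. The repeats of these proteins line the channel and are touched by karyopherins, the carriers that take cargo into the nucleus (importins) or out of it (exportins) in a cycle driven by the small GTPase Ran. The targeted exons lie on the plus strand of chromosome 13 in GRCh38, within the coding part of transcript ENST00000381736.8, which has 16 exons in GENCODE release 44. They are shown as reference sequence, 5′ to 3′ and in lower case throughout, since the edited bases were not analysed here. Exon 4 lies at chr13:25312883-25313032 and exon 13 at chr13:25331357-25331558. The length of exon 4, 150 bases, is a multiple of 3, while that of exon 13, 202 bases, is not.
NUP58 exon 4: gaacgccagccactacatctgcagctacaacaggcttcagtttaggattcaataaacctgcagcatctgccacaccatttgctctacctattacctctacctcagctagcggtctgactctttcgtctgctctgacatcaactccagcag
NUP58 exon 13: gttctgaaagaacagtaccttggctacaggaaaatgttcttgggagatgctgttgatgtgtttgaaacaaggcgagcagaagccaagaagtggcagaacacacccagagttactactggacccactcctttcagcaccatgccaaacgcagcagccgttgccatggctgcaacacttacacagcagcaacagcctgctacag

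NUP58 itself was measured as FPKM, the number of fragments scaled by transcript length and sequencing depth. It stood at 18.2, 11.9, 22.1 and 10.3 FPKM in the 4 libraries of C5 and at 15.8, 18.5, 14.3 and 13 in those of C6, against 34.3 to 50.4 (median 40.4) in the unedited libraries and 7.98 to 28 (median 11.4) in C1 to C4. The libraries of C5 spread over those of C6, and all 8 lay below every unedited library. On the log2(FPKM + 1) scale, which is used for all differences below and understates the changes of low genes, NUP58 was 1.38 ± 0.48 (SD, n = 4) below the unedited mean in C5 and 1.35 ± 0.20 in C6.

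The genes around NUP58 did not share this equality. Of the 6 tested genes within 1 Mb of NUP58, the median difference from unedited was 0.49 ± 0.23 (SD, n = 4 libraries) in C5 and -0.52 ± 0.07 in C6. The 4 values were 0.71, 0.47, 0.59 and 0.18 in C5 and -0.59, -0.42, -0.55 and -0.54 in C6, so that every C5 library was above unedited and every C6 library below it. Between the clones, 5 of the 6 genes were higher in C5 by limma (adjusted p under 0.05), where 4.37% of all genes were. Among them were MTMR6, a phosphoinositide phosphatase, by 1.17 ± 0.14 (SE, adjusted p = 0.00077) and CDK8, the Mediator kinase, by 1.02 ± 0.12 (adjusted p = 0.0008). The exception was CENPJ, a centriole protein, with 0.64 ± 0.19 (adjusted p = 0.063). All 6 belong to a longer stretch of chromosome 13, described below, in which 35 of 46 tested genes were called higher in C5. Relative to these neighbours, NUP58 was 1.86 ± 0.32 lower in C5 and 0.82 ± 0.16 lower in C6, and the libraries did not overlap (-2.15 to -1.43 against -1.02 to -0.67). This last value contains the NUP58 level that chose the pair and was not tested.

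A direct comparison of C5 with C6 tested 13303 of the 57507 genes of the table, those with a mean of at least 1 FPKM over the 8 libraries. Of these, 1290 (9.7%) differed by limma at an adjusted p under 0.05, with 582 higher in C5 (4.37%) and 708 higher in C6 (5.32%). A change of over 2-fold on this scale was reached by 376 of them (2.83%), of which 153 were higher in C5 (1.15%) and 223 higher in C6 (1.68%). The libraries of the clones did not overlap for 2199 genes (16.5%). Leaving out C6 replicate 2 reduced the 1290 calls to 782, an unmoderated test gave 728, and ASNS as a covariate gave 3005. The balance of directions was not stable, since scaling by median ratios between libraries gave 656 genes higher in C5 and 641 higher in C6. The relative depth of the libraries ran from 0.784 to 0.879 in C5 and from 0.757 to 0.904 in C6, and the fragment numbers behind single values cannot be read from FPKM.

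The largest differences in favour of C5 involved genes of quite different kinds. EPCAM, an epithelial adhesion molecule, was at 15, 16.7, 10.5 and 16.2 FPKM in C5 and at 0.814, 0.264, 0.446 and 0.181 in C6. The unedited libraries held 0.309 to 1.25 FPKM, and all 4 C5 libraries were above the 28 other HAP1 libraries. The difference was 3.45 ± 0.19 (SE) on the log2 scale, with an adjusted p of 1.1e-05 by limma. EPCAM was under 1 FPKM in every C6 library, so it passed the filter of 1 FPKM only through C5. EPCAM is also a marker of the colon line HCT116, which was part of the series. The other 9 colon epithelial markers summed to 11 to 12.4 FPKM in C5, to 7.53 to 9.85 in C6, to 7.68 to 14.9 in unedited HAP1 and to 310.0 to 769 in HCT116. CDX1, VIL1, CDH17 and CEACAM6 were listed at 0 in all C5 libraries. CDX1 and CEACAM6 were also at 0 in all C6 and all unedited libraries. CEACAM6 was at 0 in the HCT116 libraries too, so its absence from C5 cannot tell the lines apart.

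GLMP, a lysosomal membrane glycoprotein, was at 20.2, 16.8, 23.1 and 21.1 FPKM in C5 and at 1.99, 1.85, 0.842 and 1.28 in C6. Unedited HAP1 resembled C6, with 0.329 to 5.02 FPKM, while C1 to C4 were between, at 3.39 to 17.2. SEMA3A, a secreted guidance cue, stood at 8.05, 9.96, 9.67 and 12.9 FPKM in C5 and at 1.65, 1.36, 0.684 and 1.81 in C6, a difference of 2.24 ± 0.20 (adjusted p = 0.00015). For GJB2, the gap junction protein connexin 26, the values were 17.0, 21.5, 17.8 and 18.1 FPKM in C5 and 3.45, 5.16, 2.62 and 3.30 in C6. GJB2 lies on chromosome 13, in a stretch described below that was high in C5 and low in C6. Its C5 libraries were above the 28 others. PCDHB2, a clustered protocadherin, was at 7.44 to 8.16 FPKM in C5 and at 0.151 to 0.566 in C6, and SORBS2, a cytoskeletal adaptor, at 2.01 to 3.86 in C5 and at most 0.019 in C6. Both of these genes passed the filter of 1 FPKM only through C5.

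For other genes of this group C6 was the clone below all other HAP1 libraries. TMSB4X, the actin-sequestering thymosin beta 4, was at 304, 355, 264 and 313 FPKM in C5 and at 61.7, 67.9, 48.1 and 69.5 in C6, against 351 to 519 in unedited HAP1. All C6 libraries were thus below the 28 others, and the difference from C5 was 2.31 ± 0.13 (adjusted p = 1.1e-05). ELFN1-AS1, a long noncoding RNA, was at 2.99 to 11 FPKM in C5, at 0 to 1.40 in C6 and at 6.22 to 28.8 in unedited HAP1. EGR1, an immediate early transcription factor, was at 50.8, 39.9, 14.1 and 5.14 FPKM in C5 and at 3.82, 2.06, 2.48 and 2.23 in C6. Its 4 C5 libraries spanned a wide range, and its call (adjusted p = 0.021) was lost without C5 replicate 1 (0.051) or C6 replicate 2 (0.068). The remaining genes of this group, named by size alone, were LINC01139, TCEAL9, CYYR1, FCGRT and the pseudogenes AC007881.4 and ZNF788, whose reads may be shared with related genes.

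The genes most in favour of C6 formed a more uniform set, since nearly all were close to 0 elsewhere. A gene near 0 in C5 passed the filter of 1 FPKM only through its level in C6, so this pattern is partly built in. STAC, an adaptor of muscle and neuronal calcium channels, was at 15.9, 16.9, 16.5 and 14.6 FPKM in C6 and at 0.347, 0.469, 0.0954 and 0.0399 in C5. NLGN4X, a postsynaptic adhesion protein of the neuroligin family, was at 11.6, 14.2, 11.8 and 12.7 FPKM in C6 and at 0.114, 0.135, 0.246 and 0.160 in C5. Neither rose above 1.43 FPKM in any unedited library or in C1 to C4. The differences were 3.79 ± 0.15 for STAC and 3.54 ± 0.13 for NLGN4X (both adjusted p = 2.8e-06).

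GJA1, the gap junction protein connexin 43, was at 19.3, 17.8, 23.2 and 11.4 FPKM in C6 and at 0.474, 0.229, 0.284 and 0.626 in C5. Of the connexins named here, GJB2 was higher in C5 and GJA1 in C6, each with no overlap, and connexins were not compared as a family. ESRRB, an orphan nuclear receptor known for its role in pluripotent cells, was at 6.97 to 9.55 FPKM in C6, at 0.0505 to 0.411 in C5 and at most 0.341 in unedited HAP1. ZNF385D, a zinc finger gene, was at 10.7 to 22.4 FPKM in C6 and at 0.0141 to 0.581 in C5.

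SYNDIG1, which encodes a synapse protein, was listed at 0 in all C5 and all unedited libraries and stood at 4.13, 4.81, 3.68 and 8.99 FPKM in C6. ASTN1, a neuronal migration protein, was at 3.68 to 6.41 FPKM in C6 and at most 0.114 in C5. LMO3, a LIM domain factor, was also present in C1 to C4, at 1.74 to 14.1 FPKM against 17.1 to 21.8 in C6 and 1.19 to 2.24 in C5. The other named genes were TMEM108, GALNT14, FBXL7, RERG, TMEM200A and the noncoding RNAs LINC01608 and RP11-662M24.2. In 14 of these 15 genes all 4 C6 libraries were above the 28 other HAP1 libraries, as in 1.82% of all genes tested. The exception was RP11-662M24.2, which reached 39.0 FPKM in C1 to C4. The 15 genes were chosen for a large gap to C5 without overlap, so this count follows in part from the choice.

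**Figure D1:**
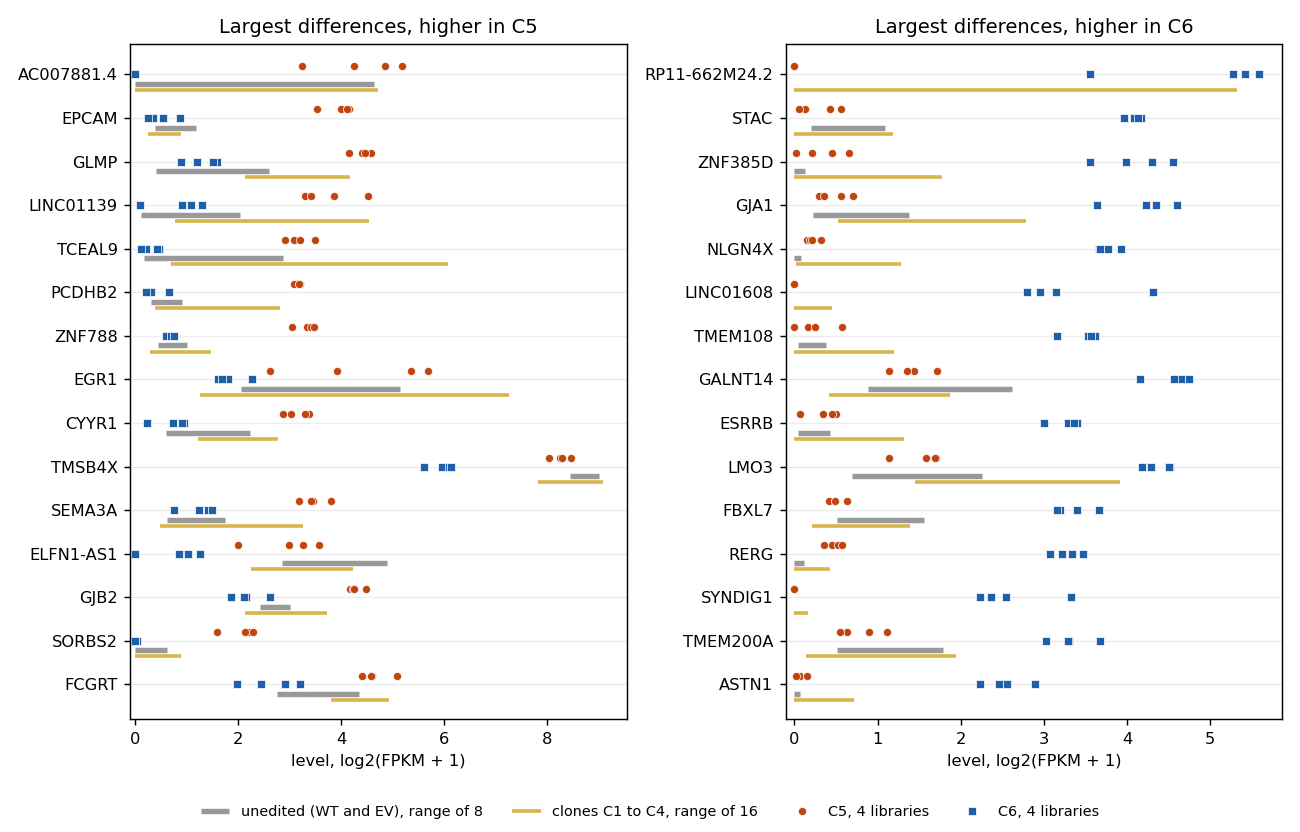
Levels of the 15 genes with the largest difference in each direction, as log2(FPKM + 1), with a point for each library of C5 and C6, a grey bar for the range of 8 unedited libraries and a yellow bar for the range of 16 libraries of C1 to C4. In the C6 panel the blue squares stand apart from both bars for all genes except RP11-662M24.2, and in the C5 panel TMSB4X and ELFN1-AS1 are low in C6 rather than high in C5.

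Which clone had moved was counted over all genes that differed by over 2-fold. Of the 223 genes higher in C6, C6 was farther from unedited than C5 in 150, and its libraries were above the 28 others in 88, where 1.82% of all genes tested were so in C6. C5 libraries were below the 28 others in 43 of them, against 1.32% of all genes. Of the 153 genes higher in C5, C5 was farther from unedited in 69 and C6 in 84. Outside chromosomes 6, 13 and X this balance turned, with C5 farther in 48 and C6 in 34 of 82 genes, while of 139 genes higher in C6 there, C6 was farther in 122. Of all 153 genes higher in C5, the C5 libraries were above the 28 others in 24 (0.511% of all genes tested). The C6 libraries were below the 28 others in 55 of the 153 (1.41% of all genes tested). Outside the 3 chromosomes, the C6 libraries were below the 28 others in 13 genes higher in C5, and the C5 libraries in 1 gene higher in C6. Unedited HAP1 had a mean under 0.5 FPKM for 52 of the 223 genes higher in C6 and for 8 of the 153 higher in C5. The lower clone was itself under 0.5 FPKM for 59 of the 223 and for 16 of the 153. Such genes passed the filter of 1 FPKM through the other clone alone. The 28 other libraries also include those of the second clone, against which the genes were chosen. All these counts therefore follow in part from how the genes were chosen. The protein-coding genes also differed in size. Outside chromosomes 6, 13 and X, the median span from start to end was 121 kb for the 110 higher in C6, 22.7 kb for the 73 higher in C5 and 34.2 kb for the 10570 tested.

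The differences were unevenly spread over the chromosomes. Of the tested genes on the X chromosome 51.5% were called, of those on chromosome 6 30.5% and of those on chromosome 13 19.6%. These 3 chromosomes held 479 calls, or 37.5% of the calls with a position, and on all other chromosomes together 6.75% of 11851 genes were called (358 higher in C5, 442 higher in C6). The median difference of X genes was -0.61 (-0.277 without the filter on low values), and 229 of the 234 called X genes were higher in C6. On chromosome 6, in turn, 182 of 200 called genes were higher in C5, and the median difference was 0.12 (0.0155 without the filter). In windows of 10 Mb with at least 10 tested genes, the median difference exceeded 0.4 in 15 of 289 windows, of which 10 lay on X, 4 on chromosome 6 and 1 on chromosome 13.

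Along chromosome 6 the shift belonged to C6 and ended sharply. From DUSP22 to MOCS1, a stretch of 269 tested genes that covers chr6:291630-39934551, the median difference from unedited was -0.71, -0.69, -0.75 and -0.61 in the C6 libraries and 0.02, 0.09, 0.03 and 0.03 in those of C5. In this stretch 172 genes were called higher in C5 and none higher in C6. Over the other 387 genes, from OARD1 to PDCD2, the median was 0.20 ± 0.07 (SD, n = 4) in C6 and 0.10 ± 0.04 in C5, and 28 genes were called. In C1 to C4 and in the unedited libraries the first stretch stayed within -0.07 to 0.11.

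On chromosome 13 both clones were low, but C5 had a stretch that ran the other way. Between PSPC1P1 and PAN3, 46 tested genes that include NUP58 (chr13:19201637-28295335), the median difference from unedited was 0.59, 0.49, 0.75 and 0.32 in the C5 libraries and -0.46, -0.34, -0.52 and -0.54 in those of C6. Of these 46 genes, 35 were called, all higher in C5. Over the other 184 genes, from POMP to CHAMP1, C5 was at -0.65 ± 0.08 (SD, n = 4) and C6 at -0.46 ± 0.09, and 10 genes were called. C1 to C4 stayed within -0.20 to 0.18 over this second stretch.

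The X chromosome differed in C5. From DIAPH2 to TMLHE, 210 tested genes (chrX:96684712-155719098), the median difference from unedited was -0.84, -0.79, -0.81 and -0.82 in the C5 libraries and 0.03, 0.06, -0.02 and 0.10 in those of C6, with 153 genes called higher in C6 and 1 higher in C5. From GYG2 to SPIN2B (171 genes) C5 was at -0.38 ± 0.04 (SD, n = 4), and in the 73 genes between, from FAAH2 to NAP1L3, at 0.07 ± 0.03. The limits of all these stretches were placed after the values were seen, so their medians are descriptions. Only RNA was measured in these files, and the DNA content of the stretches was not tested.

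**Figure D2:**
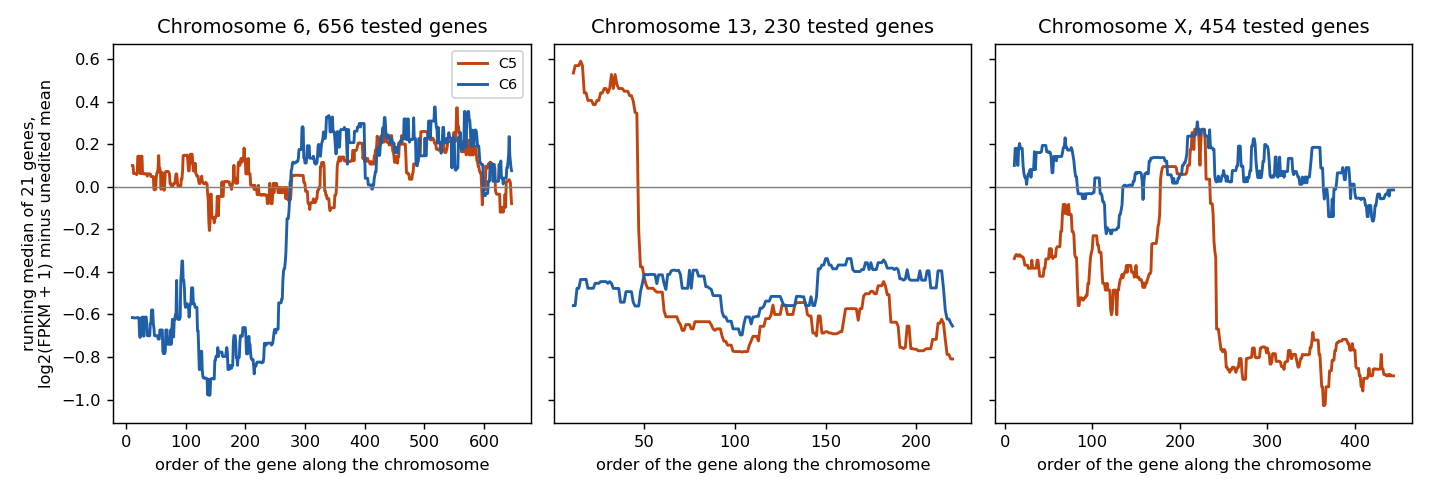
Running median over 21 neighbouring tested genes of the difference from the unedited mean, in log2(FPKM + 1) (mean of 4 libraries), along chromosomes 6, 13 and X in gene order, for C5 and C6. C6 is low over the first 269 genes of chromosome 6, C5 is high over the first 46 and low over the rest of chromosome 13, and C5 is low over the last 210 genes of X.

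Genes in these stretches could move to opposite sides of unedited HAP1. In all, 91 of the 13303 genes (0.684%) were called in each clone against unedited, with opposite signs, and called between the clones. Of the 91, 31 lay on X, 17 on chromosome 13 and 12 on chromosome 6, and 45 were high in C5 and 46 in C6. The genes that follow were chosen after their values were seen. NXT2, a partner of mRNA export receptors, was at 12.0, 10.3, 10.1 and 10.5 FPKM in C5 and at 28, 26.3, 27.5 and 29.7 in C6, against 16.1 to 22.7 in unedited HAP1. All C5 libraries were below the unedited range and all C6 libraries above it. FMR1, an RNA-binding protein of the X chromosome, behaved likewise, with 18.7 to 21.1 FPKM in C5, 44.1 to 48.0 in C6 and 28.8 to 39.0 in unedited HAP1.

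On chromosome 13, GTF3A, the transcription factor of 5S ribosomal RNA genes, was at 149, 132, 177 and 125 FPKM in C5 and at 57.6, 54.9, 60.2 and 41.8 in C6, on either side of the unedited 85.7 to 119. RPL21, a ribosomal protein gene of the same stretch with many pseudogene copies that may share its reads, was at 2034 to 2623 FPKM in C5 and 926 to 1025 in C6. A gene outside these chromosomes was LINC01234, a noncoding RNA of chromosome 12, at 0.557 to 1.31 FPKM in C5, 6.79 to 10.4 in C6 and 2.11 to 4.83 in unedited HAP1.

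Leaving aside NUP58, whose level chose the pair, 32 nucleoporins and pore-associated genes in 4 lists were tested between the clones. Of these 2 were called, where 9.7% of all genes were, so the count was near that of genes at large. The libraries did not overlap for 5 of the 32 (16.5% of all genes), and all 5 were among the 8 genes of the filaments and basket, of which 4 had an unadjusted p under 0.05. NUP153, a basket nucleoporin encoded in the low stretch of chromosome 6, was at 42.6, 33.1, 42.8 and 38.5 FPKM in C5 and at 20.1, 21, 23 and 18.7 in C6, against 33.3 to 46.8 in unedited HAP1. The C6 libraries were below the 28 others, and the difference was 0.89 ± 0.11 (SE, adjusted p = 0.00091). GLE1, an mRNA export factor at the cytoplasmic face of the pore, was lower in C5 by 0.35 ± 0.09 (adjusted p = 0.040), a call that was lost when any 1 of the 8 libraries was left out (adjusted p 0.055 to 0.11). The other 6 tested genes of the central channel and its linkers had no call by limma (0 at an unadjusted p under 0.05), with differences from -0.28 to 0.13. Against unedited, 8 of the 32 genes were called for the pair of clones together, 1 higher and 7 lower, where 28.9% of all genes were called. NUP35 was higher by 0.44, and NUP210, NUP153, POM121, NUP50, NUP188, GLE1 and NUP107 were lower by 0.21 to 0.60. For NUP153 only the C6 libraries were all below the unedited range, while those of C5 overlapped with it. The calls of NUP50 and NUP188 were lost without any of several single libraries (adjusted p up to 0.067 and 0.077). Under some alternatives that kept all libraries, the calls of NUP50, NUP188, NUP107, POM121 and GLE1 against unedited were lost.

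Among the karyopherins, 2 of 24 tested genes differed between the clones (8.3%, near the 9.7% of all genes). XPO4, an exportin whose gene lies in the stretch of chromosome 13 that was high in C5, was at 22.8, 19.4, 27.5 and 18.4 FPKM in C5 and at 11.7, 10.8, 11.5 and 7.86 in C6. The groups did not overlap, and the difference was 1.00 ± 0.16 (adjusted p = 0.0036). TNPO2, an import receptor on chromosome 19, was at 106, 101, 110.5 and 121 FPKM in C5 and at 86.1, 73.9, 85.8 and 76.1 in C6, with a difference of 0.44 ± 0.09 (adjusted p = 0.014) that was no longer called without C5 replicate 4 (0.050) or C6 replicate 2 (0.059).

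Against unedited HAP1 the karyopherins of the pair moved in both directions. Of the 24 genes, 8 were higher and 3 lower, where 15.5% of all genes were higher and 13.4% lower. KPNA4, an importin alpha, was at 20.7 to 26.9 FPKM in C5 and at 22.1 to 27.7 in C6, all above the unedited 12.3 to 18.2, by 0.74 ± 0.09 (adjusted p = 1.3e-05). TNPO1, a close relative of TNPO2, was at 60.3 to 103 FPKM in C5 and 68.4 to 96.3 in C6 against 42.7 to 66.0, and KPNA5, KPNA1, KPNA6, TNPO2, XPO5 and XPO1 were also higher. KPNA3, encoded on chromosome 13 in the stretch that was low in both clones, was at 20.0 to 27.1 FPKM in C5 and 20.3 to 29.2 in C6, below the unedited 29.7 to 39.5, and IPO5 and XPO7 were the other lower members. KPNA1, XPO5 and XPO7 were no longer called without 1 of 2, 1 and 3 single libraries respectively (adjusted p 0.051 to 0.057). Under some alternatives that kept all libraries, the calls of KPNA1, KPNA6, XPO1, XPO5 and XPO7 against unedited were lost. Of the 7 genes of the Ran cycle none was called between the clones by limma, where 9.7% of all genes were. None of the 7 had an unadjusted p under 0.05.

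Other lists, which were chosen with earlier results of these data in view, are described by their counts, to be read against the 9.7% of all genes that were called between the clones. In antigen presentation by MHC class I, 3 of 13 tested members were called, all higher in C5, and the median difference was 0.54 against -0.02 over all genes. TAP1, a subunit of the peptide transporter, was at 17.9, 22.8, 19.9 and 19.9 FPKM in C5 and at 9.71, 9.35, 9.64 and 12.4 in C6. PSMB8, an immunoproteasome subunit, and TAPBP, the tapasin gene, were the others, and all 3 lie on chromosome 6 in the stretch that was low in C6. Over the 269 tested genes of that stretch, 63.9% were called and the median difference was 0.74. The list was not tested apart from the position of its genes. The call of TAPBP was lost without any of 6 single libraries (adjusted p 0.061 to 0.099). The desmosome gene DSP, encoded in the same stretch, was at 14 to 16.7 FPKM in C5 and 6.36 to 6.83 in C6. In the list of complex I of the respiratory chain 4 of 37 members were called (10.8%, near the share of all genes), all higher in C6, and NDUFA1 and NDUFB11 among them lie on X. The call of NDUFB11 did not hold without C6 replicate 1 (adjusted p = 0.082) or any of 4 other single libraries. NDUFA1 was at 144, 149, 114 and 140.1 FPKM in C5 and at 308, 314, 324 and 315 in C6.

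Among the HOX genes, which carry positional identity, 5 of 26 tested members (19.2%) differed. HOXD13 was at 23.2, 17.4, 23.6 and 21.1 FPKM in C5 and at 6.4, 4.66, 7.28 and 5.91 in C6, a difference of 1.66 ± 0.15 (adjusted p = 0.00015). HOXC10 was at 32, 30.8, 29.0 and 31.1 FPKM in C5 and at 10.0, 9.57, 7.10 and 13.5 in C6. For both genes the C5 libraries were above the unedited range (5.16 to 7.66 for HOXD13, 3.89 to 8.88 for HOXC10), and the C6 libraries overlapped with it. HOXC9 and HOXB6 were also higher in C5, and HOXA7, which falls outside the rule for named genes and was added after its value was seen, was higher in C6 by 0.58. Against unedited, the pair of clones was higher in 12 of 23 tested HOX genes and lower in 1, with a median difference of 0.44, where 15.5% of all genes were higher and 13.4% lower.

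The axon guidance and cell adhesion list split between the clones. Of 28 tested members, 6 were higher in C6 and 2 higher in C5 (28.6% called, against 9.7% of all genes). ROBO2, a receptor for SLIT guidance cues, was at 7.76, 9.25, 6.98 and 9.61 FPKM in C6 and at 1.03, 2.53, 1.62 and 2.25 in C5. CADM2 and NCAM1, both adhesion molecules of neurons, were at 5.29 to 6.16 and 2.10 to 4.42 FPKM in C6 and at 0.0182 to 1.31 and 0.173 to 0.446 in C5. SEMA3A, described above, was one of the genes higher in C5. The list of exocytosis genes was similarly divided, with SYT1 and STX3 higher in C5 and CPLX1, SYP and SYT11 higher in C6.

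Signalling genes differed one by one. SOCS2, a feedback inhibitor of JAK-STAT signalling, was at 58.8, 55.4, 45.4 and 54.5 FPKM in C5 and at 17.1, 22.2, 18.8 and 16.9 in C6, with all C6 libraries below the 28 others (difference 1.47 ± 0.12, adjusted p = 9.9e-05). Both clones were below the unedited 70.1 to 105.4. BMP2, a growth factor of the TGF-beta family, was at 2.96, 6.68, 3.55 and 3.20 FPKM in C5 and at 10.4, 10.0, 8.38 and 15 in C6, where it was above the 28 others. ISG15, an interferon-stimulated ubiquitin-like protein, was at 22.9 to 31.6 FPKM in C5 and 5.73 to 10.0 in C6, but of the 17 tested interferon-stimulated genes (11.8% called, near the share of all genes) only BST2 also differed, and it was higher in C6, a call lost without any of 5 single libraries (adjusted p 0.062 to 0.075). In mesenchymal and matrix genes VIM and SPARC were higher in C5, and ZEB1 and CDH2 higher in C6, CDH2 no longer called without C6 replicate 1 (adjusted p = 0.053) or C6 replicate 2 (0.054).

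None of the 20 tested ATF4 target genes, 15 unfolded protein response genes, 13 heat shock genes, 18 p53 targets or 13 mitochondrially encoded genes was called between C5 and C6 by limma. At an unadjusted p under 0.05 they held 3, 0, 3, 1 and 0 genes. ASNS, the asparagine synthetase and an ATF4 target, is given because it varied between replicates: it was at 80.9, 218, 64.0 and 97.2 FPKM in C5 and at 96.5, 143, 55.7 and 214 in C6, and the clones overlapped fully. Of the blood markers, PTPRC, GATA1, SPI1, MPO and HBG1 were listed at 0 in all libraries of C5 and C6. KIT, a receptor tyrosine kinase and the only blood marker tested, was at 1.26, 3.11, 0.933 and 2.96 FPKM in C5 and at 4.17, 4.5, 3.05 and 6.10 in C6, against 0.410 to 3.07 in unedited HAP1. The clones overlapped, with a difference of -0.88 ± 0.28 (adjusted p = 0.088), and the pair was higher than unedited by 0.70 ± 0.23 (adjusted p = 0.034), a call lost without any of 8 single libraries (adjusted p 0.052 to 0.072).

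What the clones shared was read from 1 contrast, the mean of C5 and C6 against the mean of WT and EV, each with 4 libraries. Of 13261 genes tested, 3834 (28.9%) were called, 2055 higher in the clones (15.5%) and 1779 lower (13.4%). These counts are descriptions, since the pair was chosen for many genes changed against WT. Against WT alone 1987 genes were called, and scaled by median ratios 1908 were higher and 1911 lower. A change of over 2-fold was found for 295 genes (2.22%), and the 8 clone libraries did not overlap with the 8 unedited ones for 698 of all genes (5.26%). Both conditions were met by 147 genes, and 99 of these were not called between C5 and C6, 52 of them higher and 47 lower than unedited. Of the 99, 82 had been tested between the clones, and the other 17, all among the lower genes, were under the 1 FPKM filter there, so a difference between C5 and C6 was not tested for them. For 91 of the 99, the mean FPKM of C1 to C4 lay between those of unedited and of the pair. The 99 were chosen for a wide gap between unedited and the pair, so this count is a description.

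Of the shared increases, that of CCND1 was the largest. CCND1, the cyclin D1 that drives entry into S phase, was at 18.2, 17.9, 16.8 and 22.9 FPKM in C5 and at 22.1, 23.6, 22.7 and 22.1 in C6. All 8 libraries were above the unedited 0.959 to 3.90 and above the 4.45 to 9.06 of C1 to C4, and the pair exceeded unedited by 2.92 ± 0.13 (SE, adjusted p = 3.5e-10). PDGFRA, a receptor of platelet-derived growth factor, was at 26.8, 22.1, 20.7 and 29.5 FPKM in C5 and at 19.5, 22.6, 15.4 and 21.6 in C6, against 0.505 to 8.04 in unedited HAP1 and 7.63 to 19.7 in C1 to C4. The homeobox genes NKX2-1 and NKX2-4 and the ETS factor ETV1 were also shared. NKX2-1 was at 5.32 to 12.9 FPKM in C5, 6.78 to 15.3 in C6 and 0.246 to 3.28 in unedited HAP1. The others were VSNL1, ZNF608, PLCB1, SLC19A3 and CCDC181.

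Of all members of the lists, SYT1 had the largest difference between the pair and unedited. It encodes a calcium sensor of vesicle release, which the rule for shared genes left out because it also differed between the clones. It was at 61.4, 83.8, 55.2 and 66.4 FPKM in C5 and at 39.5, 34.8, 37.4 and 52.1 in C6, against 0.637 to 2.98 in unedited HAP1. The pair exceeded unedited by 4.24 ± 0.15 (adjusted p = 4.5e-11), and C5 exceeded C6 by 0.69 ± 0.16 (adjusted p = 0.021). C1 to C4 also carried it, at 13.8 to 80.4 FPKM, and the pair did not differ from them by the test (0.41, adjusted p = 0.16).

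Shared decreases included genes of the cytoskeleton, members of the serpin family and a cell cycle inhibitor. ACTG2, the enteric smooth muscle actin, was at 0.357, 0.0469, 1.19 and 0.213 FPKM in C5 and at 0.0811, 0.153, 1.59 and 0.0541 in C6, against 5.66 to 32.3 in unedited HAP1. SERPINF1 was at 2.94 to 15.7 FPKM in C5 and 6.41 to 20.6 in C6 against 66.4 to 130.1, a difference of -3.04 ± 0.28 (adjusted p = 1.1e-06). CDKN1A, the p53 target that encodes the cell cycle inhibitor p21, was at 3.43, 3.98, 4.61 and 1.74 FPKM in C5 and at 2.68, 1.86, 2.56 and 1.93 in C6, all below the unedited 8.12 to 72.4. The pluripotency-associated noncoding RNA ESRG was at most 0.137 FPKM in C5 and listed at 0 in C6, against 3.59 to 20.2. SERPINB1, ZNF22, LINC00371, ERVK-28, STRA6 and POF1B completed the named genes. Except for SERPINF1 and CDKN1A, the named lower genes were among the 17 not tested between the clones, and for LINC00371 the values were 0.986 to 2.19 FPKM in C5 and 0.0456 to 0.0937 in C6, without overlap. CDKN1A and SERPINB1 lie in the stretch of chromosome 6 that was low in C6, and LINC00371 lies in the stretch of chromosome 13 that was low in both clones. The part of these stretches in the decreases was not tested.

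**Figure D3:**
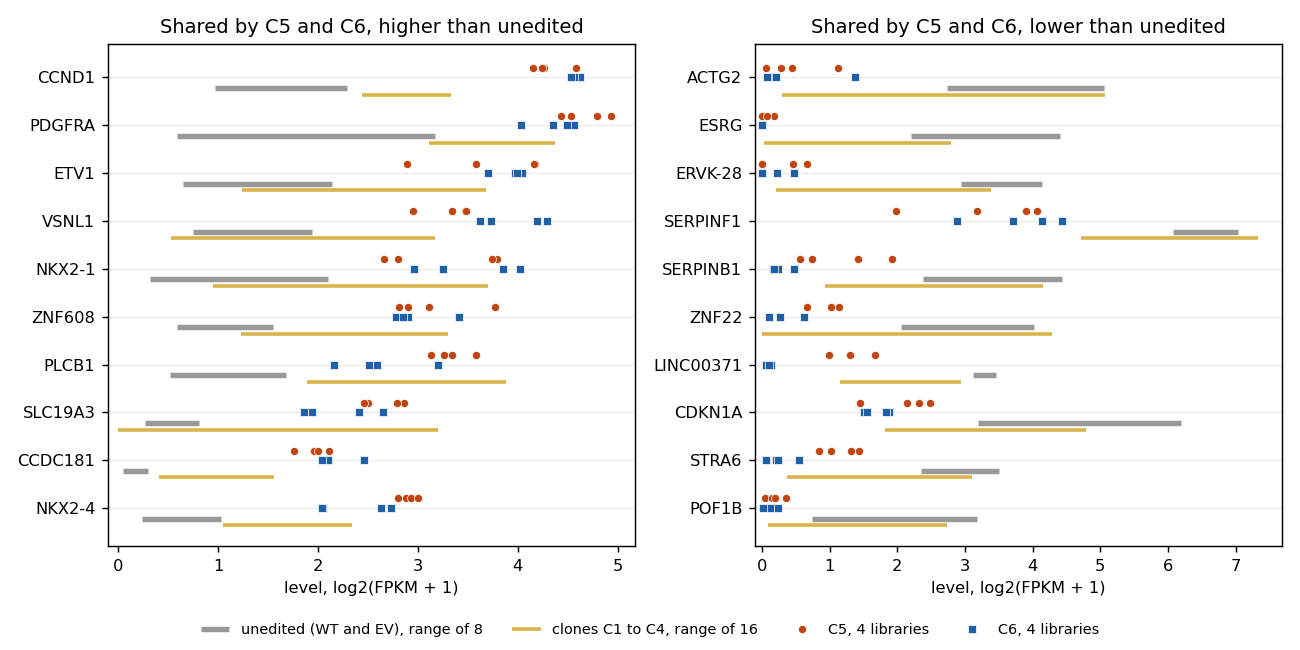
Levels of the 10 genes shared by C5 and C6 with the largest increase and the 10 with the largest decrease against unedited HAP1, as log2(FPKM + 1), with a point for each library, a grey bar for the range of the 8 unedited libraries and a yellow bar for that of the 16 libraries of C1 to C4. The points of C5 and C6 lie outside the grey bar for all 20 genes, and for CCND1 they also lie above the yellow bar.

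The lists differed in the balance of directions against unedited, to be read beside the 15.5% of all genes that were higher and the 13.4% that were lower. Of 28 tested BMP and TGF-beta genes 11 were higher and none lower, among them BMP2 (1.91 ± 0.19) and BMP7 (1.43 ± 0.12, not called against EV alone, adjusted p = 0.12). Of 28 axon guidance and adhesion genes 14 were up and 4 down, and their median was 0.32 where that of all genes was 0.01, and of 25 Wnt genes 8 were higher and 2 lower. Of 20 S phase genes 1 was higher and 9 lower, among them the cyclin CCNE2, which fell by 1.52. Cholesterol synthesis had 1 higher and 8 lower of 20, targets of NRF2 and glutathione genes 1 and 7 of 17, p53 targets 1 and 6 of 19 and the unfolded protein response 0 and 6 of 15. In the epithelial list, where 1 of 8 tested members was higher and 3 lower, EPCAM was higher by 1.39 ± 0.13, with C6 inside or below the unedited range, KRT8 fell by 2.02 ± 0.15 and KRT18 by 0.83, and in the matrix list SPARC fell by 2.23 ± 0.15.

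Against C1 to C4, the mean of C5 and C6 differed in 2301 of 13180 genes (17.5%), 1377 higher (10.4%) and 924 lower (7.01%). Scaled by median ratios between libraries, 1027 were higher and 1183 lower, so the balance of directions depended on the scaling. A change of over 2-fold was found for 123 genes (0.933%). Of the 99 shared genes, 94 could be tested, and 79 of them were also called in the same direction against C1 to C4, by smaller steps for the named genes (CCND1 1.46 and PDGFRA 0.82 higher, SERPINF1 2.51 and ACTG2 2.01 lower). The C5 and C6 libraries that chose the 99 genes also enter this contrast, so the 79 are a description and no separate support. VSNL1 was higher by 1.67 and ETV1 by 1.49. For PLCB1 the difference from C1 to C4 was 0.31 (adjusted p = 0.23).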

How the data were processed

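RNA-seq of HAP1 cells was analysed from a deposited table of FPKM values for 57507 genes in 47 libraries. According to the submitters' processing notes the authors used FastQC, STAR and RSEM with GRCh38, and the FPKM values are scaled by transcript length and library depth. Gene positions came from GENCODE release 44 and matched 98.1% of genes. Fragment counts cannot be read from FPKM, so the depth is known only as a relative value. FPKM totals of the HAP1 libraries were 604053 to 654081.

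Values were analysed as log2(FPKM + 1) for genes with a mean of at least 1 FPKM. Groups were compared with limma 3.58.1 (R 4.3.3, empirical Bayes with a trend), and genes were called at a Benjamini-Hochberg adjusted p under 0.05. Groups came from the sample labels, and the 4 libraries of a line are called biological replicates in the study, without details of separate cultures. Named genes were the 15 with the largest difference in each direction between the clones, the 10 shared genes with the largest change in each direction, called members of the pore and karyopherin lists and up to 4 called members of each other list, and others are marked as chosen after their values were seen. The members and lists were chosen with earlier results of these data known. The fit was tested on simulated data: 143 of 200 genes with a log2 change of 1 between C5 and C6 were called. Alternatives covered the pseudocount, filter, scaling, variance model, ASNS as a covariate, thresholds, control line and each library left out. Samples of the line HCT116 served as a marker reference only, and samples whose labels disagree were left out. Python 3.11.15, pandas 2.3.3 and matplotlib 3.10.9 were used.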

Additional observations from a re-analysis of the deposited data

Results flagged for a closer look

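Among 206 groups of 4 libraries, those of C5 and of C6 for 103 genes, 8 had 1 library that stood far from the other 3. Chance flags about 1 in 20 groups that can be flagged. Groups whose highest library was under 1 FPKM could not be flagged but count in the 206, so 8 of 206 cannot be set against that rate. In C6 the highest library stood apart for LINC01608 (18.8 FPKM), ZNF608 (9.62), CCDC181 (4.51), ACTG2 (1.59) and TAP1 (12.4). In C5 the highest library stood apart for BMP2 (6.68 FPKM) and the lowest for KPNA3 (20.0) and STX3 (22.9).

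Genes were also singled out because C5 and C6 were called against unedited in opposite directions and differed from each other by limma. These were LINC01234, with a difference of -2.30 between C5 and C6, PLAC1, a placenta-enriched gene of the X chromosome, with -2.01, DDAH2 with 1.72, PXDC1 with 1.64 and GTF3A with 1.43. PLAC1 was at 0.292 to 0.721 FPKM in C5 and 3.83 to 6.68 in C6, on either side of the unedited 0.728 to 1.96. DDAH2 and PXDC1 lie on the short arm of chromosome 6. DDAH2, which breaks down an inhibitor of nitric oxide synthesis, was at 17.3 to 23.9 FPKM in C5 and 3.69 to 8.86 in C6, against 9.24 to 16.6 in unedited HAP1.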

How the results depend on the processing

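No named gene changed sign under the alternatives tried. Only the medians of chromosomes 5, 6, 9, 13 and X were recomputed, and none of these changed sign without 1 library. The balance of calls turned under median-ratio scaling, to 656 higher in C5 and 641 higher in C6. It turned to 1908 higher and 1911 lower than unedited, and to 1027 higher and 1183 lower than C1 to C4. Of 783 values of the 87 named genes between C5 and C6 under alternatives that kept all libraries, 721 kept their side of the threshold and 62 lost it, and without 1 library 613 of 691 kept it. For the pair against unedited the counts were 1174 of 1269 and 2094 of 2256, and against C1 to C4 they were 217 of 220 and 159 of 160. Between C5 and C6 the 1290 calls became 399 (unadjusted p under 0.01 and over 2-fold), 376 (adjusted p and over 2-fold), 3005 (ASNS as a covariate), 728 (unmoderated test) and 782 to 1392 without 1 library, the lowest without C6 replicate 2. For the pair, the 3834 calls against unedited became 293, 295 with the same thresholds, 1987 against WT alone and 3280 to 4399 without 1 library. The 2301 calls against C1 to C4 became 123 with either threshold, 3470 with ASNS and 1822 to 2151 without 1 library. List members called went from 65 to 149 with ASNS, 33 with the unmoderated test and 45 to 75 without 1 library. The number of calls of C5 against C6 ranked 2 among the clone pairs, a description since the clones were chosen for many changed genes, and ranked 1 with a pseudocount of 0.1, no filter or TPM scaling. Chromosome medians without the filter were -0.0549 (5), 0.0155 (6), -0.0550 (9) and -0.277 (X), and X was at -0.674 with a pseudocount of 0.1. Without 1 library they ran from -0.111 to -0.0871 (5), 0.101 to 0.184 (6, highest without C6 replicate 4), -0.170 to -0.129 (9), -0.124 to -0.0565 (13) and -0.636 to -0.563 (X). The causes were not tested. The replicate numbers share only a number: same-numbered C5 and C6 libraries correlated at 0.255, 0.178, 0.461 and 0.048, and not every library correlated best with its own number. With a replicate block the calls were 1466, 4778 and 3432, and 74 list members were called. With unknown depth, low values such as those of genes near 0 FPKM have no counting interval.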

Other observations

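Collagen genes, which were not described above, split between the clones, with 3 of 13 tested members higher in C6 and 1 higher in C5 (30.8% called, against 9.7% of all genes). Among 13 genes of the nuclear lamina and its partners, 2 were higher in C5 and 1 higher in C6 (23.1%). EMD, the X-linked gene for emerin of the inner nuclear membrane, was at 104, 96.0, 111 and 106 FPKM in C5 and at 170, 158, 185 and 149 in C6, against 174 to 206 in unedited HAP1. The clones did not overlap, and C6 was higher by 0.66 ± 0.09 (SE, adjusted p = 0.0015 by limma).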
